A study of Caenorhabditis elegans with 2 samples.

Results

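The genes described here encode the general transcription machinery of the nematode Caenorhabditis elegans, which comprises subunits of RNA polymerases I, II and III, the general initiation factors of RNA polymerase II and the Mediator complex. They were chosen by name, as the protein-coding genes of the Ensembl WBcel235 annotation whose symbol begins with taf, rpb, rpc, rpoa, mdt, gtf, tbp, ttb or ama followed by a hyphen. The choice gave 69 of the 19973 protein-coding genes of the 6 nuclear chromosomes. By name, 4 of these 69 genes were placed under RNA polymerase I, 12 under RNA polymerase II and 4 under RNA polymerase III. A further 18 were placed under TFIID, 11 under the other general factors and 20 under Mediator. A subunit shared between polymerases was counted only under the polymerase of its name. Subunits of these complexes with other names, such as rpac-19 and rpac-40 of RNA polymerases I and III, sop-3, sur-2, lin-25 and the kinase module of Mediator, and the TFIIH kinase, were counted apart in a companion list, so the tallies are not of whole complexes. Peaks of the transcription factor ZIP-5 were looked up at each gene. In the promoter window, 8 of the 69 (11.6%, beside 3.32% of all protein-coding genes) had a peak of the most stringent list. These were mdt-8, taf-7.2, ttb-1, rpoa-12, mdt-6, mdt-9, taf-12 and taf-4.

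Chromatin immunoprecipitation sequencing (ChIP-seq) recovers DNA bound to a protein and calls the places where its reads pile up as peaks. ZIP-5, a transcription factor of the basic leucine zipper (bZIP) family, was made from a stably inserted transgene with a C-terminal tag of green fluorescent protein (eGFP) and FLAG and recovered with an antibody against GFP from sonicated chromatin. Both biological replicates came from whole hermaphrodite late embryos of the transgenic strain OP544, genotype unc-119(tm4063) III; wgIs544, taken 4 h after synchronization by egg bleaching, and they form the only group. All tissues of the embryo were mixed, the strain is 1 transgenic line, and the promoter that drives the transgene is not given in the sources used here. No mock precipitation from worms lacking the tag was at hand, so a listed peak may or may not stem from ZIP-5 itself, and with 1 group no comparison between conditions was possible.

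RNA polymerase I makes the large ribosomal RNA precursor, RNA polymerase II makes messenger RNAs, and RNA polymerase III makes transfer RNAs and other small RNAs. At a promoter of RNA polymerase II, TFIID, made of the TATA-binding protein and its associated factors (TAFs), recognizes the core promoter, TFIIB joins it to the polymerase, and TFIIA, TFIIE, TFIIF and TFIIH stabilize and open the complex. Mediator carries signals from sequence-specific factors such as bZIP proteins to the polymerase. These genes are needed in nearly every cell, and in the early worm embryo loss of several of them, ama-1 and taf-4 among them, is known to stop most new transcription.

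The authors' optimal set held 746 peaks, 730 of them on the nuclear chromosomes. It was derived by the irreproducible discovery rate (IDR), which rests on how peak ranks agree between replicates. The ranks of a single peak could still differ, as at sop-3 of the companion list below, with rank 2108 in replicate 1 and 512 in replicate 2. Relaxed lists, which hold peaks and background, had 6253 entries for replicate 1, 6945 for replicate 2 and 4380 when called on both alignments together. Each entry has the authors' own signal value, a peak score of no stated scale that was used only within a list. It ran from 95.2 to 2499 in the optimal set, from 48.3 in the list called on both alignments, from 24.0 in the replicate 1 list and from 25.5 in the replicate 2 list. The lists give no read counts, so the sequencing depth is unknown. A gene was counted when the summit of a peak lay from 1000 bp upstream to 200 bp downstream of its outermost annotated start, and positions below are bp from that start, negative upstream.

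In the optimal set, 8 of the 69 genes (11.6%) had a summit in this window, beside 3.32% of all protein-coding genes. In the list called on both alignments the count was 22 (31.9%), beside 10.8% of all genes. Replicate 1 alone gave 20 genes (29.0%, beside 12.6%) and replicate 2 alone 26 (37.7%, beside 13.6%), and 18 genes (26.1%, beside 7.36%) had a summit in the lists of both replicates. The gene families were proposed with these lists in view, so the counts describe the lists, and no test was made of them. Of the 69 genes, 8 had a summit of the optimal set, a further 14 one of the list called on both alignments, a further 6 one in the list of a single replicate, and 41 none in any list.

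The counts by complex stand beside 3.32% of all genes in the optimal set and 10.8% in the list called on both alignments. TFIID had 3 of 18 genes with an optimal summit and 6 of 18 with a summit called on both alignments, and Mediator had 3 of 20 and 7 of 20. Among the other general factors the counts were 1 of 11 and 4 of 11. The rpoa genes of RNA polymerase I had 1 of 4 and 3 of 4. The ama and rpb genes, placed under RNA polymerase II by name, had 0 of 12 and 2 of 12. The rpc genes of RNA polymerase III had 0 of 4 in both lists. The polymerase groups follow gene names, so a subunit shared between polymerases is missing from the counts of the others. With groups of 4 to 20 genes these counts are a description, and differences between complexes were not tested. Beside such low shares of all genes, a count of 0 in a group this small is not read as a lack of peaks.

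**Figure D1:**
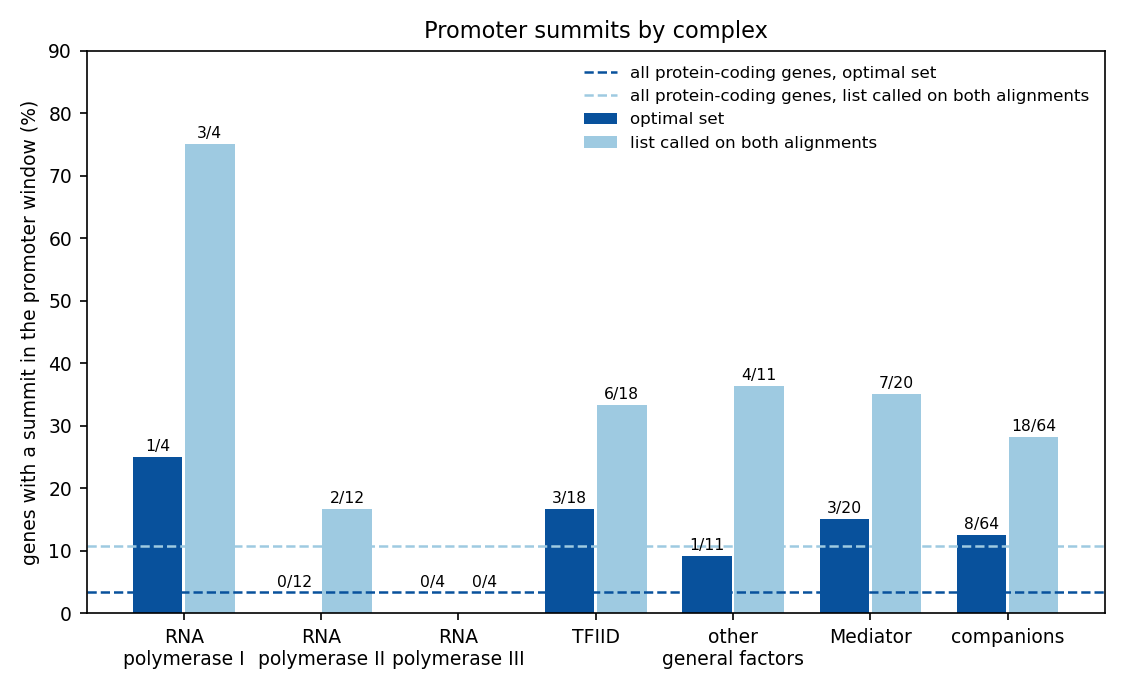
Share of genes (%) with a peak summit in the promoter window, for each of the 6 complexes and for 64 companion genes, in the optimal set (dark bars) and in the list called on both alignments (light bars), with the number of genes above each bar. Dashed lines mark the share of all protein-coding genes, 3.32% and 10.8%, and the rpc genes of RNA polymerase III are at 0 of 4 in both lists.

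Among the ama, rpb, rpc and rpoa genes, the summit of the optimal set lay at rpoa-12 (WBGene00007616), whose yeast counterpart is a small subunit of RNA polymerase I with a role in cleaving the transcript. The 444 bp peak, chrV:14423262-14423705 (ce11), had a signal of 168 and ranked 342 of 746, with its summit in intergenic sequence 180 bp upstream of the start. The overlapping entries had a signal of 114 (rank 199) in the replicate 1 list and of 70.0 (rank 486) in the replicate 2 list, and the replicate 2 summit was 73 bp away. Of the 8 genes, rpoa-12 had the largest shift of a replicate summit, and its peak ranked higher in replicate 1. The start of rpoa-12 was the nearest to the summit, and the window of pas-1, a proteasome alpha subunit gene on the same strand, also held it at -866.

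The genes of both large catalytic subunits of RNA polymerase I were in the list called on both alignments. At rpoa-1, which encodes the largest subunit, the signal was 61.0 (rank 1910 of 4380) and the summit lay 39 bp upstream. At rpoa-2, which encodes the second-largest subunit, the signal was 49.2 (rank 4093), near the lowest value of the list, the summit lay 161 bp upstream in a window shared with prom-1, and the replicate 1 list had no overlapping entry. The remaining rpoa gene, rpoa-49, had no summit in any list.

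RNA polymerase II had its strongest summit at rpb-11, a subunit that pairs with RPB-3 in the assembly of the enzyme, and this was also the strongest summit of the 69 genes outside the optimal set. Its signal of 85.2 (rank 891 of 4380) stood below the weakest optimal peak of the whole genome, 95.2, and the weakest optimal peak at one of the 69 genes had 123. The peak, chrII:14059742-14060185, had its summit 121 bp upstream of rpb-11, in a window shared with W01G7.4 on the same strand, and the replicate entries had signals of 42.5 and 36.6. At rpb-7, a subunit of the polymerase stalk, the signal was 58.0 (rank 2243), the summit lay 653 bp upstream within coding sequence of Y54E10BR.2, and the replicate 2 list had no overlapping entry. Replicate 2 alone had a summit at rpb-12, with a signal of 37.4. The other 9 genes, ama-1 for the largest subunit and rpb-2, rpb-3, rpb-4, rpb-5, rpb-6, rpb-8, rpb-9 and rpb-10, had none in any list.

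The 4 rpc genes of RNA polymerase III had summits in the replicate 2 list only, at rpc-2 for the second-largest subunit (signal 32.8, -191) and at rpc-11 (30.5, -547). Neither gene had a summit in its window in the list called on both alignments, and rpc-1 and rpc-25 had none in any list. RNA polymerase III transcribes transfer RNA genes, so the distance to such genes was measured as well. At the 8 genes with an optimal summit, the nearest tRNA or snoRNA gene was from 2506 bp (mdt-8) to 147143 bp (mdt-9) away, and at the 14 genes with a summit called on both alignments alone from 935 bp (mdt-22).

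For TFIID, the strongest peak lay at taf-7.2 (WBGene00006389), which encodes a TAF7-like subunit. The peak chrIII:12673350-12673793 had a signal of 204 and ranked 248 of 746. Its summit was 149 bp upstream of taf-7.2 and 105 bp upstream of elpc-2, an Elongator subunit gene on the opposite strand, so the start of elpc-2 was nearer. The replicate 1 entry had a signal of 80.9 (rank 373) and the replicate 2 entry one of 126 (rank 164). The entries of both replicates had their summits within 8 bp of the optimal summit, although the ranks differed by more than 2-fold.

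The gene of another TFIID subunit, taf-12 (WBGene00006396), had its summit far upstream. TAF-12 carries a histone fold, through which its counterparts in yeast and human pair with TAF4. The peak chrIII:11870006-11870449 had a signal of 126 and ranked 531, with the summit 947 bp upstream of the outermost start. The entries had signals of 49.1 (rank 750) in replicate 1 and 79.7 (rank 391) in replicate 2. The rank in replicate 1 fell just outside the strongest 746 entries of that list. No other protein-coding gene had this summit in its window, and the start of taf-12 was the nearest.

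TAF-4, the partner of TAF-12, is a scaffold subunit of TFIID on which much transcription in the early worm embryo depends. At taf-4 (WBGene00006385), the peak chrI:382276-382719 had a signal of 123 and ranked 550, the lowest of the 8 genes, and its summit was 328 bp upstream. The replicate 1 entry had a signal of 56.3 (rank 602) and the replicate 2 entry one of 68.3 (rank 503). The window of pqn-59, on the opposite strand, held the summit too, at -596, and the start of taf-4 was nearer. The genes of TAF-4 and TAF-12 were both in the optimal set, at ranks 550 and 531 in the weaker 50% of it.

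Of the other TFIID genes, 3 had a summit in the list called on both alignments and also in the lists of both replicates. At taf-6.2, for a TAF6-like subunit, the peak chrIV:3694621-3695064 had a signal of 80.6 (rank 980 of 4380), with entries of 38.4 and 40.6 in replicates 1 and 2, and its summit was 110 bp upstream but nearer to Y37E11AL.3 on the opposite strand. At taf-10, for a histone-fold subunit, the peak chrV:4686671-4687114 had a signal of 76.5 (rank 1077) and entries of 29.4 and 47.3, with the summit 210 bp upstream. At taf-3 the signal was 63.9 (rank 1673), the entries had 34.0 and 31.4, and the summit was 625 bp upstream. The remaining 12 genes, taf-1, taf-2, taf-5, taf-6.1, taf-7.1, taf-8, taf-9, taf-11.1, taf-11.2, taf-11.3, taf-13 and tbp-1, the gene of the TATA-binding protein itself, had no summit in any list. The paralogs taf-6.1 and taf-6.2, and taf-7.1 and taf-7.2, were therefore split, each pair with 1 gene listed and 1 not.

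Among the other general factors, the optimal summit belonged to ttb-1 (WBGene00006648), the gene of TFIIB. The peak chrV:156025-156468 had a signal of 183 and ranked 292 of 746, and its summit was 572 bp upstream of the outermost of 3 annotated starts. The entries were alike in both replicates, with signals of 88.9 and 91.1 and rank 309 in each list. No other protein-coding gene had this summit in its window, so ttb-1 and taf-12 were the genes of the 8 whose summit was shared with no neighbour.

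A further 3 of these factors had a summit called on both alignments: gtf-2E2 for the smaller TFIIE subunit (signal 73.1, rank 1190, -2, within an intron of dhgd-1), gtf-2A2 for the small TFIIA subunit (59.6, rank 2061, -776) and gtf-2H3 for a TFIIH core subunit (55.5, rank 2603, -117). The gtf-2E2 entries had signals of 33.3 and 37.0 in replicates 1 and 2, and the gtf-2A2 entries 27.7 and 34.1. The replicate 1 summit of gtf-2A2 lay at -986, 210 bp from the called summit. At gtf-2H3, whose window partner ham-3 lies on the opposite strand, the replicate 1 list had no entry. Replicate 2 alone had a summit at gtf-2E1 (26.6, -804), the gene of the other TFIIE subunit. No list had one at gtf-2F1, gtf-2F2, gtf-2H1, gtf-2H2C, gtf-2H4 or gtf-2H5, so TFIIF and the other TFIIH genes of this list were without a summit.

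The strongest of the 8 peaks lay upstream of mdt-8 (WBGene00007013), which encodes a head-module subunit of Mediator. The peak chrII:11534578-11535021 had a signal of 370.4 and ranked 66 of 746. Its entries had signals of 187 (rank 69) in replicate 1 and 191 (rank 62) in replicate 2, so the peak ranked alike in both. The summit was 984 bp upstream of mdt-8, near the edge of the window, and in replicate 2 it lay at -1010, outside it. The list called on both alignments had a further, weak summit at 192 bp past the start (signal 49.7, rank 3936 of 4380). The replicate 2 counts hold mdt-8 only through an entry at 184 bp past the start (signal 33.4, rank 2405 of 6945). The nearest start was that of Y62F5A.12 on the same strand, from which the summit lay at -321, and the gap between Y62F5A.12 and mdt-8 was 109 bp. Whether the peak concerns mdt-8 or Y62F5A.12 cannot be told from its position.

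The peak at mdt-6 (WBGene00003164), another head-module subunit, was placed in the same way. The peak chrV:7060319-7060762 had a signal of 150.2 and ranked 418, with entries of 76.6 (rank 404) and 75.3 (rank 421) in replicates 1 and 2. The summit lay 917 bp upstream of mdt-6, 71 bp upstream of Y57E12AL.6 on the same strand, and 11 bp inside Y57E12AL.1 on the opposite strand, within the 5′ UTR of that gene. The gap between Y57E12AL.6 and mdt-6 was 38 bp. Both of these starts were nearer to the summit than that of mdt-6.

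The peak at mdt-9 (WBGene00014938), a middle-module subunit, lay closer to the gene but among 4 starts. The peak chrIV:13385998-13386441 had a signal of 130.1 and ranked 503, with entries of 57.7 (rank 590) and 71.4 (rank 466) in replicates 1 and 2. The summit was 160 bp upstream of mdt-9, 104 bp upstream of Y62E10A.23 on the same strand, which overlaps mdt-9, and 129 bp upstream of Y62E10A.20 on the opposite strand. The window of lsm-3, a gene of an Sm-like protein of messenger RNA decay and splicing, held it at -983. For none of these 3 Mediator genes was the gene's own start the nearest to the summit.

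**Figure D2:**
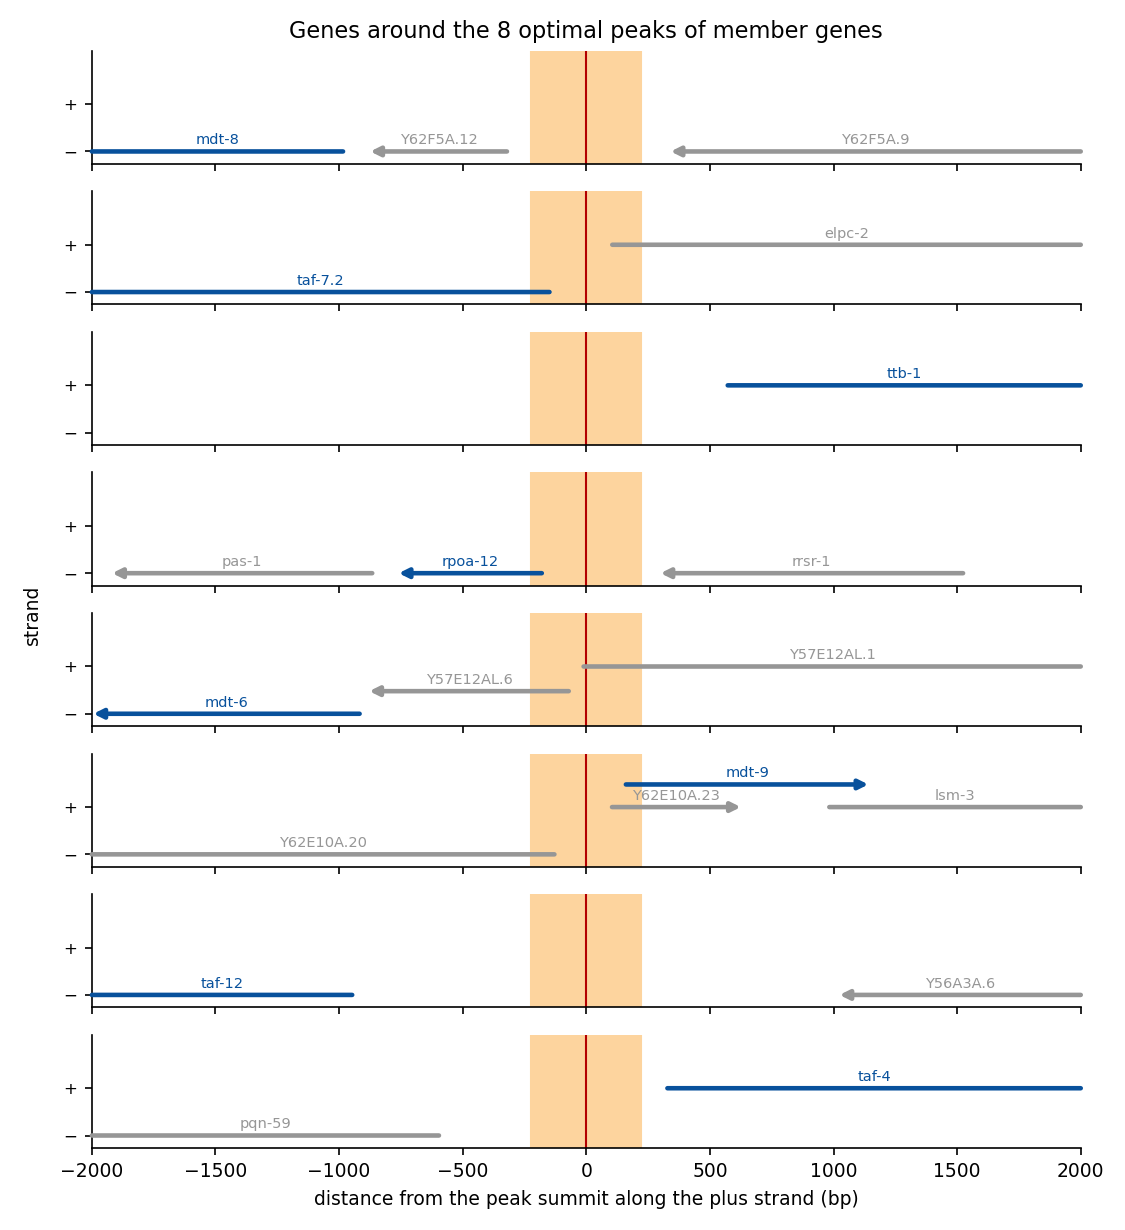
Genes on the plus and minus strands around each of the 8 optimal peaks, ordered by signal from mdt-8 (370.4) to taf-4 (123), as the distance (bp) from the peak summit (red line); the called peak is in orange, the gene of the machinery in blue and other protein-coding genes in grey. Genes that reach past the plotted range have no arrowhead at that end, genes with only a short stretch in it are not drawn, and the summit lies nearest to another gene's start at mdt-8, taf-7.2, mdt-6 and mdt-9.

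Mediator had 4 more genes with a summit called on both alignments. At mdt-26, whose mammalian counterpart also takes part in elongation, the peak chrII:5660891-5661334 had a signal of 83.2 (rank 932), with entries of 34.4 and 54.8 in replicates 1 and 2 and the summit 68 bp upstream, shared with ift-43 on the opposite strand. At mdt-19 the peak chrIII:2597106-2597549 had a signal of 81.4 (rank 968), with entries of 37.4 and 43.9, and the summit was 725 bp upstream but nearer to apb-1 (-294) on the opposite strand. At mdt-22, a head-module subunit, the summit lay 8 bp inside the gene's own 5′ UTR with a signal of 67.4 (rank 1425), and the entries had 45.7 and 27.6. At mdt-1.2 the signal was 61.3 (rank 1888), the summit was 71 bp upstream, and the replicate 1 list had no overlapping entry. Single replicates had a summit at mdt-21 (replicate 1, signal 27.9, -371) and at mdt-4 (replicate 2, 30.2, -903). The other 11 genes, mdt-10, mdt-11, mdt-15, mdt-17, mdt-18, mdt-20, mdt-27, mdt-28, mdt-29, mdt-30 and mdt-31, had none in any list. The window is that of the outermost start, and at mdt-18 an optimal summit lay in the window of another annotated start.

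The sequences at 5 of the 8 optimal summits are printed because they hold one of the words counted here, or, for mdt-8, because it is the strongest peak and holds none. Each is the plus strand of ce11 read 5′ to 3′ from the RefSeq WBcel235 genome, 75 bp either side of the summit, except mdt-6, which was trimmed to leave out annotated UTRs. Capitals mark the fixed words CTAGGCCA, ACTCCTCT and TTGCGCAA, the last a C/EBP site, on either strand. The intervals are chrIII:11870153-11870303 for taf-12, chrV:156172-156322 for ttb-1, chrIII:12673497-12673647 for taf-7.2, chrV:7060471-7060529 for mdt-6 and chrII:11534725-11534875 for mdt-8.
taf-12: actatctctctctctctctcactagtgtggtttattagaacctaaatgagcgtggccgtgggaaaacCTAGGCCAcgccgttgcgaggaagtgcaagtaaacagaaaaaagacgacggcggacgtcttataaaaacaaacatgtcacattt
ttb-1: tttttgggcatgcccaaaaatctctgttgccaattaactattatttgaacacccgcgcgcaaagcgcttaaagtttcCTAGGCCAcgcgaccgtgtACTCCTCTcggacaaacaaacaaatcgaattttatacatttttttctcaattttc
taf-7.2: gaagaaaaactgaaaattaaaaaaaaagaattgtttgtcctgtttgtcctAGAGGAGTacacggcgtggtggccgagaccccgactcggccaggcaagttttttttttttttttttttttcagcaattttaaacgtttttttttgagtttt
mdt-6: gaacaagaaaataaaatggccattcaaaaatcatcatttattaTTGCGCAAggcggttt
mdt-8: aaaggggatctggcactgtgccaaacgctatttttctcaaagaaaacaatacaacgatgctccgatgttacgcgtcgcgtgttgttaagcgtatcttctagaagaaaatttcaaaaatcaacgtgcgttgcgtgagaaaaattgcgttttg

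The words lay close to the summits. CTAGGCCA began 8 bp before the summit at taf-12 and 2 bp after it at ttb-1, on the plus strand in both. ACTCCTCT began 21 bp after the summit at ttb-1, and at taf-7.2 it lay on the minus strand from 25 to 18 bp before the summit. TTGCGCAA lay from 27 to 20 bp before the summit at mdt-6.

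The 7 words were counted within 100 bp of a summit, a word and its reverse complement as 1. CTAGGCCA was known from earlier results of these data to lead an open search for words at all optimal summits. CTAGGCCA was at 2 of the 8 summits, at 11.6% of the 730 nuclear optimal summits, and in 0.966% of windows of the same length upstream of all genes. ACTCCTCT was likewise at 2 of 8, 6.99% of optimal summits and 0.606% of all such windows. TTGCGCAA was at 1 of 8, at 1.78% of optimal summits and in 0.371% of the windows. The other words, GGGCGG, TGACGTCA (bound by some bZIP factors), GGGTTCGA (found in the internal promoter of tRNA genes) and TGATAA, were at 0 of the 8, and at 12.3%, 0.548%, 7.53% and 10.1% of optimal summits and in 4.67%, 1.26%, 0.315% and 21.2% of the windows. The 8 summits all lie in promoter windows, as do 457 of the optimal summits. Of these 457, 17.3% held CTAGGCCA, 9.41% ACTCCTCT and 2.41% TTGCGCAA. GGGCGG was at 13.1% of them, TGACGTCA at 0.875%, GGGTTCGA at 3.94% and TGATAA at 9.41%. None of the 7 words was at mdt-8, mdt-9, rpoa-12 or taf-4, and a word in a window is a match of letters, not a site shown to be bound. Most copies of the words lay elsewhere: of 5720 copies of CTAGGCCA in the genome, 92 (1.61%) were within 100 bp of an optimal summit.

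The 8 peaks were found in both replicates. Each had an overlapping entry in both relaxed lists, with signals from 49.1 to 187 in replicate 1 and from 68.3 to 191 in replicate 2, and with summits at most 73 bp from the optimal summit. The optimal set was derived from these lists by IDR, so this is a description and no independent evidence. Of the 14 genes with a summit called on both alignments and none in the optimal set, 10 had entries in both replicate lists, 3 (mdt-1.2, rpoa-2 and gtf-2H3) had none in replicate 1, and rpb-7 had none in replicate 2. Their entries ran from 27.7 to 45.7 in replicate 1 and from 26.4 to 54.8 in replicate 2. The summits of these entries lay up to 210 bp from the called summit, with the largest shifts at gtf-2A2 (210 bp), mdt-26 (131 bp) and mdt-22 (114 bp). Among the entries present, the signals of the 8 and of the 14 did not overlap in either replicate. Each of the 8 had the same rank in the optimal set as in the list called on both alignments, where the 14 ranked below them. The 8 were thus set apart by signal in that list, so the gap is no finding about the genes. It was not counted over all optimal peaks. Of the companions with an optimal summit, sop-3 (32.0) and pafo-1 (44.5) in replicate 1 and cids-2 (44.4) in replicate 2 had signals within the range of the 14.

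**Figure D3:**
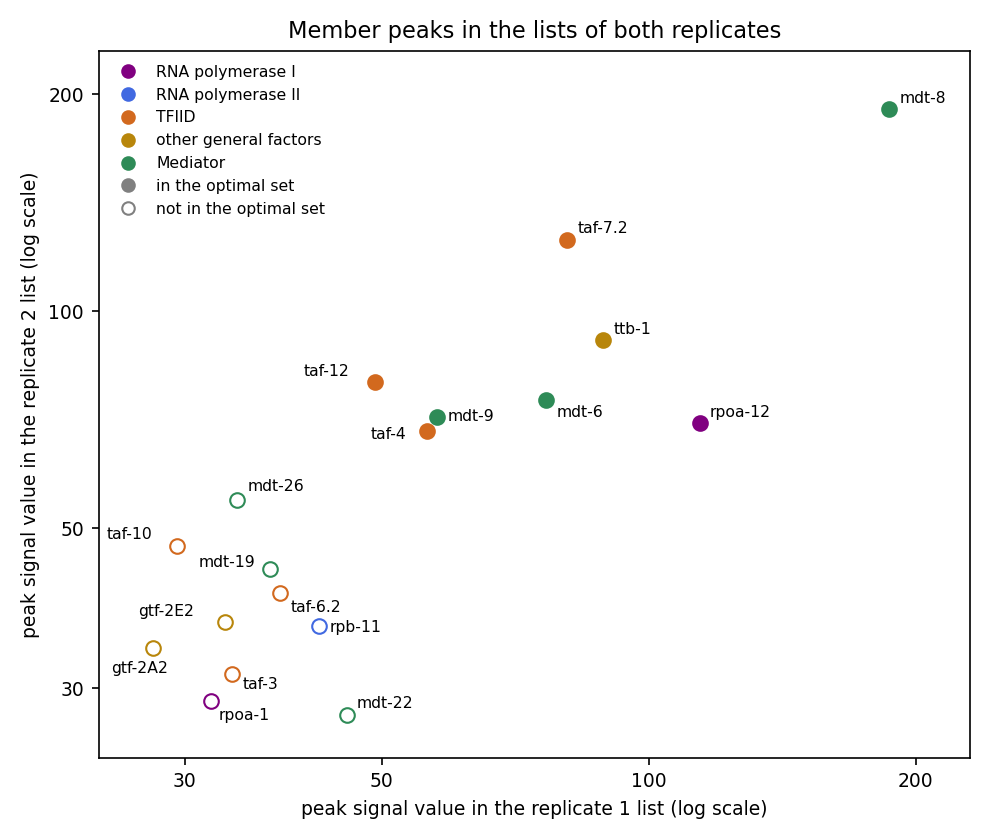
Peak signal value in the replicate 1 list against that in the replicate 2 list, both on log axes, for the 18 genes with an overlapping entry in both lists, with filled points for the 8 genes of the optimal set. The point of mdt-8 stands apart at 187 and 191, and taf-7.2 and rpoa-12 lie on opposite sides of the diagonal.

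The 8 summits ranged from -984 at mdt-8 to -149 at taf-7.2. Their median position was -450, beside -244 for all 664 genes with an optimal summit, and 3 of 8 (37.5%) lay within 250 bp of the start, beside 52.0% of all such genes. The summits of mdt-8, taf-12 and mdt-6 were more than 900 bp upstream, 3 of 8 (37.5%) beside 31 of 664 (4.67%). Another protein-coding gene shared the summit at 6 of 8 (75%, beside 64.8%), and the gene's own start was the nearest at 4 of 8 (50%, beside 66.1%). Their median signal was 159 beside 169.8 for all such genes. In the list called on both alignments the 22 genes had a median signal of 81.0 and a median position of -170.5, beside 67.3 and -263 for all 2166 genes with a summit there.

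**Figure D4:**
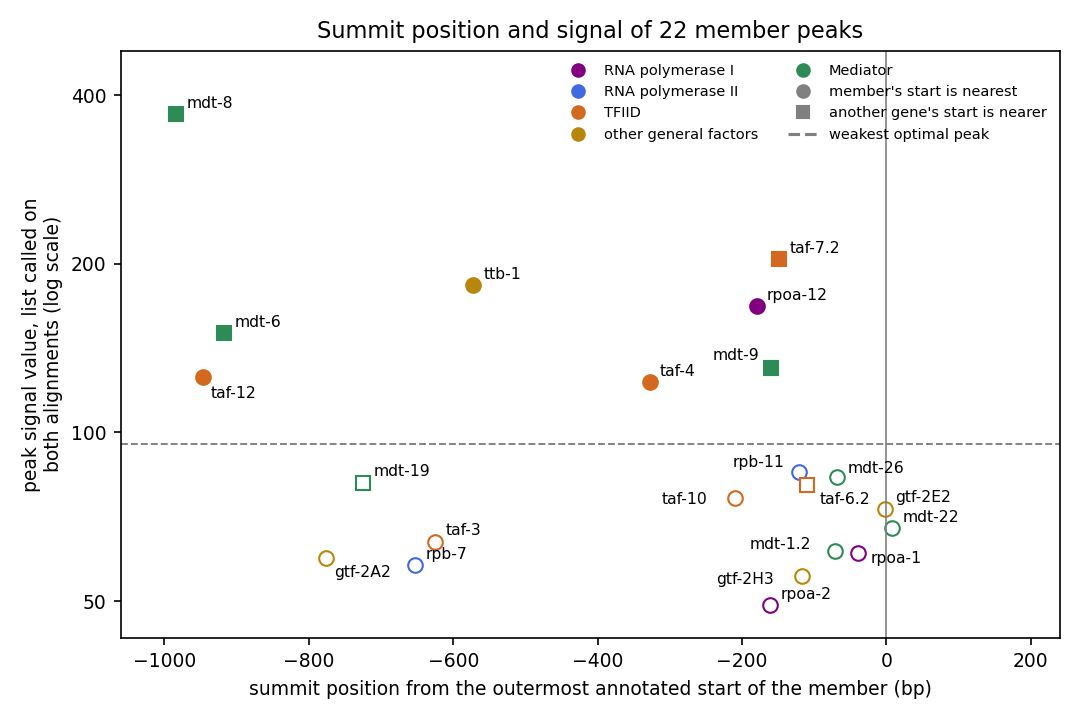
Position of the summit from the outermost annotated start (bp, negative upstream) against the signal value in the list called on both alignments (log axis), for the 22 genes with a summit in the window; squares mark summits nearer to another gene's start, and the dashed line is the weakest optimal peak (95.2). Points above the line are the 8 genes of the optimal set, from taf-4 (123) to mdt-8 (370.4), and rpb-11 (85.2) is the highest below it.

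For the 61 genes without an optimal summit in the window, the distance from their start to the nearest optimal summit ran from 1246 to 298473 bp with a median of 42190 bp, beside 54973 bp for all 19309 genes without one. It was over 10000 bp at 49 of the 61 (80.3%), beside 88.3% of all such genes. At mdt-18 (1246 bp) and mdt-4 (1427 bp) the nearest summit lay downstream of the start inside the gene body, and no other of the 61 had one within 2000 bp. The mdt-18 summit lay in the window of another of that gene's annotated starts. The 69 genes lay on all 6 nuclear chromosomes, and those with an optimal summit were on each of the autosomes. Chromosome V had 3 of 10, beside 2.50% of all its genes, and the X chromosome 0 of 4, beside 1.24%.

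A companion list of 64 genes, named for their roles around the same machinery, had 8 genes (12.5%) with an optimal summit, beside the same 3.32%, and 18 (28.1%) with a summit called on both alignments, beside 10.8%. It held Mediator subunits with other names and the Mediator kinase module, the polymerase subunits rpac-19 and rpac-40, the TFIIH kinase, the factors of small-RNA promoters, elongation factors, the Paf1 complex, Integrator and termination factors. The elongation kinase gene cdk-9 had the strongest companion peak, with a signal of 175.3 (rank 318), entries of 85.3 and 89.6 in replicates 1 and 2 and the summit 165 bp upstream, shared with hxk-2. The Paf1 complex, which travels with elongating RNA polymerase II, had 3 genes with an optimal summit: rtfo-1 (signal 166.0, rank 351, -479, nearer to K09G1.1), cdc-73 (153.6, rank 400, -83) and pafo-1 (103.3, rank 670, -127). Its other genes, ctr-9 and leo-1, had no summit in any list.

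The remaining companions with an optimal summit were ints-8 of Integrator (signal 158.7, rank 384, -75), rpac-19, a subunit shared by RNA polymerases I and III (125.6, rank 532, -125, shared with tbg-1), sop-3, the Mediator MED1 homologue (101.6, rank 684, -186), and cids-2, a protein that binds the tail of RNA polymerase II (95.6, rank 742, -185, shared with phip-1). The sop-3 entries differed between replicates, 32.0 in replicate 1 and 67.6 in replicate 2, while those of ints-8 were 86.3 and 73.6. Of the 8 companion summits, 7 lay within 250 bp of the start and 7 were nearest to the companion's own start, and their median signal was 139.6. CTAGGCCA and ACTCCTCT were at 0 of the 8 companion summits, GGGCGG at 2 (cdk-9 and rtfo-1), TGATAA at 2 (pafo-1 and rpac-19) and TTGCGCAA at 1 (pafo-1).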

How the data were processed

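The authors deposited peak lists in builds ce10 and ce11, and the 4 ce11 lists were used, whose coordinates are those of the WBcel235 genome at hand (0 peaks ended past a chromosome). Per the deposited file listings, lists were called on each replicate and on both alignments together with a control, and the optimal set was derived from them by IDR. The signal value per peak is a score the authors deposited, with no stated scale. The aligner, the peak caller with its settings and the threshold of the IDR were not given in the sources used here, the control libraries were not used, and no read counts were at hand.

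Summits were assigned to genes of Ensembl release 115 with Python 3.11.15 and drawn with matplotlib 3.10.9. Every gene whose window (1000 bp upstream of the outermost start to 200 bp past it) held a summit was counted. A replicate entry is one overlapping the peak by at least 1 bp. Words were counted in windows of 201 bp, and for all genes in 300 to 100 bp upstream of the start. Window and word counting were checked on simulated data. Because of trans-splicing in nematodes, transcription may begin upstream of an annotated start.

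The genes, companions and words were chosen with earlier results of these data known. Named were all genes with an optimal summit, the 5 strongest of the other genes with a summit called on both alignments, those that complete each complex, companions with an optimal summit and neighbours sharing a window. The remaining genes with weaker summits were added so that every gene is accounted for. Of 69 companion names 64 matched the annotation, and bdp-1, tfam-1, ints-10, ints-12 and ints-14 did not. Both replicates form 1 group, so no test was made.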

Additional observations from a re-analysis of the deposited data

How the results depend on the processing

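Of the 69 machinery genes, 8 had an optimal summit as reported, and the number fell to 4 (5.80%, beside 2.67% of all genes) with a window of 500 bp upstream, which lost mdt-6, mdt-8, taf-12 and ttb-1. It was 4 (5.80%, beside 2.23%) with only the nearest start counted, without mdt-6, mdt-8, mdt-9 and taf-7.2, and 4 (beside 1.83%) in the stronger 50% of the list, without mdt-6, mdt-9, taf-12 and taf-4. In that stronger 50% the companions had 2 genes and all protein-coding genes 366. Under the other planned settings on windows, starts, overlap and RNA genes the machinery count was 8 or 9, beside 3.11% to 4.17% of all genes. The gene gained was mdt-18, with any annotated transcript start counted. In the list called on both alignments the machinery count was 22 as reported. There it ran from 15 (21.7%, with 500 bp upstream) to 26 (37.7%, with any annotated start). The share of all genes in that list was not counted under these settings, so those counts stand without a background. Leaving out 1 replicate meant taking the 746 strongest entries of the other replicate's list, and no new optimal set was derived. It gave 7 to 8 machinery genes, 6 to 7 companions, 654 to 657 genes in all and 1 to 2 machinery summits with CTAGGCCA. Without replicate 2 taf-12 was lost, at rank 750 in replicate 1. Without replicate 1 mdt-26 was gained and mdt-8 lost, whose replicate 2 summit (rank 62) lay at -1010, outside the window. No paired analysis was possible because the 2 replicates form a single group. Depth is unknown, so of a gene without a summit it can only be said that it is not listed.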

Other observations

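Many machinery genes lie close behind another gene on the same strand, an arrangement looked at after the data were seen. With gaps of at most 150 bp, 20 of the 69 genes (29.0%) followed another gene in such a run, beside 8.0% of all protein-coding genes. Of the 20, 2 (10%, beside 2.19% of all 1597 genes so placed), mdt-6 and mdt-8, had an optimal summit in their own window, which was also in the window of the first gene of the run. A further 3 (15%, beside 9.64%) had one only at the first gene: rpc-2 behind hach-1 (signal 347, rank 80, position -332 from hach-1 and 2247 bp from the start of rpc-2), mdt-10 behind cec-3 (208.8, rank 237, -111 and 2669 bp) and mdt-11 behind wip-1 (142.0, rank 445, -363 and 2948 bp). Counting these, 11 of 69 machinery genes (15.9%), 10 of 64 companions (15.6%) and 818 of all genes (4.10%) had a summit. Operon annotation was not used here, and whether any run is transcribed together was not tested.

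Some summit sequences shared longer stretches, again chosen after the data were seen. Those of taf-7.2 and ttb-1 share, on opposite strands, the 14 bases CCGTGTACTCCTCT, which occur at 16 of the 730 nuclear optimal summits (2.19%) and in 8 of 19973 windows upstream of all genes (0.0401%). Those of taf-12 and ttb-1 share the 12 bases CCTAGGCCACGC, found at 4 summits (0.548%) and in 3 windows (0.0150%). In each case the pair that gave the stretch is itself among the summits counted, so the share at summits is raised by the choice. The GC content of the 8 windows ran from 33.3% at taf-7.2 to 50.7% at taf-4, beside medians of 41.8% at all optimal summits and 33.8% upstream of all genes.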
